A study of Mus musculus with 4 samples.

Results

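Chemokines are small secreted proteins that attract cells, and chemokine receptors are the G protein-coupled receptors through which they act. Their genes were taken here as the probes whose gene symbol in the platform annotation starts with Ccl, Cxcl, Cx3cl, Xcl, Ccr, Cxcr, Cx3cr or Xcr followed by a digit. The rule gave 46 of the 23473 probes on the array and 45 of 16390 named genes, 30 for ligands and 15 for receptors. Cxcl16 had 2 probes and every other gene 1. Cxcl4 and Cxcl7 carry the current names Pf4 and Ppbp, which are used below.

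The arrays measured RNA of NSCL61, a line of mouse glioma-initiating cells derived by transforming p53-deficient neural stem cells with oncogenic HRas; the labels give strain C57BL6, brain and stage P0. Both groups share that oncogene, that p53 loss and that 1 parental line, so the comparison is within a transformed line and not with normal neural stem cells. The control group was 2 arrays labelled as NSCL61, for which the series title gives a control hairpin, and the other group was 2 arrays of NSCL61 carrying a short hairpin RNA (shRNA) against Eva1, now named Mpzl2, an adhesion gene. The labels give hygromycin selection as 1 week in the treatment protocol and as 2 weeks for the Eva1 shRNA cells in the growth protocol, and do not say whether clones or pools were used. The labels do not state separate cultures for the arrays of a group, so the spread behind each p-value may be technical only.

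Intensities are given as deposited, on a linear scale on which the median probe of each array is near 25. Log2 changes are Eva1 shRNA minus control after quantile normalization, from a limma fit across all 13765 genes with a value on all 4 arrays, with two-sided p-values adjusted by Benjamini-Hochberg over those genes and a threshold of 0.05. Mpzl2, the target, had intensities of 55.0 and 54.4 in the controls and 8.20 and 6.21 in the Eva1 shRNA cells (log2 change -3.12, adjusted p = 0.00105; -1.71 with 16 intensity units added before log2, a setting that damps changes of dim probes). Of 6 tested neural stem cell markers, 0 rose, 1 fell and 5 did not pass. Fabp7, a radial glia gene, fell (-1.15, adjusted p = 0.00521; -0.59 with 16 units added). Nes, the neural progenitor filament gene, had 532 and 537 in the controls and 435 and 429.9 in the Eva1 shRNA cells (-0.47, adjusted p = 0.0558), and Vim, another filament gene, had 16408 and 15332 against 26086 and 20267 (0.33, adjusted p = 0.239). Prom1 was 3.25 and blank in the controls and 11.8 and 9.76 in the Eva1 shRNA cells, and was not tested. Of the defining leukocyte genes, Ptprc, Itgam and Adgre1 were blank on at least 2 arrays each and at most 2.48 elsewhere. Cd2 was blank on all 4. Some other macrophage markers did have signal. Csf1r read 34.0 and 38.0 in the controls and 53.0 and 44.5 in the Eva1 shRNA cells. Aif1 lay between 19.9 and 29.9 on all arrays, and neither gene passed. Of 6 tested macrophage markers, 1 rose (Cd14, 0.82), 2 fell (Cd68, -1.17, and Fcer1g, -1.06) and 3 did not pass, and the summed intensity of that list was 326 to 346 in the controls and 349.6 to 364 in the Eva1 shRNA cells. The T cell list summed to 22.7 to 25.5 over all arrays, and 0 of its 4 tested genes passed. Of the neutrophil list S100a8 fell (-1.72). Ly6g, which defines those cells, had 31.7 and 33.0 in the controls and 37.0 and 34.2 in the Eva1 shRNA cells (-0.07, did not pass). S100a9 and Mpo were at most 4.78 on any array. The list summed to 480.2 to 518 in the controls and 168 to 237 in the Eva1 shRNA cells. S100a8 made up most of each sum. Each of these 4 leukocyte marker calls was lost when 1 array was left out: Cd68 (adjusted p = 0.0648) and Fcer1g (0.151) without Eva1 shRNA array 1, Cd14 (0.0881) without Eva1 shRNA array 2 and S100a8 (0.0537) without control array 1. Of 6 fibroblast and pericyte markers, Pdgfrb rose (0.54, adjusted p = 0.0421), Rgs5 fell (-2.53, adjusted p = 0.0164) and 4 did not pass. With 16 units added the change of Rgs5 was -0.86. The list summed to 818 to 909 in the controls and 1111 to 1249 in the Eva1 shRNA cells. Most of each sum came from Col3a1, which did not pass (0.50, adjusted p = 0.0728). Col3a1 had 610 and 726 in the controls and 1080 and 997 in the Eva1 shRNA cells. Col1a1, Dcn, Lum and Rgs5 had changes below 0, and half-way among the 6 markers lay -0.35 (median). Of 2 tested endothelial markers, Emcn rose from a dim signal (0.76, adjusted p = 0.0363; 0.15 with 16 units added), the list summed to 23.3 to 27.1 over all arrays, and Pecam1, Cdh5 and Tek were each blank on 1 array and at most 4.46 elsewhere. These calls too were lost with 1 array left out, Pdgfrb (0.202) and Emcn (0.169) without Eva1 shRNA array 1 and Rgs5 (0.0769) without control array 2. Leaving out 1 array leaves 1 array in a group, and fewer of all genes tested passed then. A call lost this way, here or below, does not by itself mark a gene as less stable than others. The part of other cells in the results was not tested. In these bulk samples fewer cells of a kind and less RNA per cell cannot be told apart.

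Chemokines are sorted by the spacing of their first cysteines into the CC, CXC, CX3C and XC classes, and most receptors couple to the Gi class of G proteins. Inflammatory chemokines are typically switched on by NF-κB and interferon signalling and bring in neutrophils, monocytes or T cells, whereas homeostatic ones guide cells through resting tissue. In the brain, Cxcl12 and its receptor Cxcr4 guide migrating neural precursors, neurons present the CX3C chemokine fractalkine to microglia, and glioma cells secrete chemokines such as Ccl2 that attract macrophages.

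Chemokine genes changed in both directions in the Eva1 shRNA cells. Of the 32 genes with a value on all 4 arrays, 6 passed the test as higher, 5 passed as lower and 21 did not pass. The rises were Ccl20, Cxcl10, Cxcl12, Cxcl1, Ccl5 and Ccl7, and the falls were Ccl3, Cxcr4, Cx3cl1, Ccl11 and Ppbp. The 11 calls are 34.4% of the tested members, beside 26.0% of all genes tested, where 12.5% were called higher and 13.5% lower. At least 2-fold changes that passed were seen for 7 of the 32 members (21.9%), beside 11.6% of all genes. The groups did not overlap for 23 members (71.9%), beside 66.7% of all genes. The median change of the members was 0.14 on the log2 scale and that of all genes -0.01. Without quantile normalization, with the authors' scaling alone, 11 members were called higher and 5 lower, so that 68.8% of the calls were higher in place of 54.5%. All genes turned the same way with that scaling, from 1720 higher and 1856 lower to 2714 higher and 1295 lower. That scaling moved the median change up by 0.21 against median centring.

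**Figure D1:**
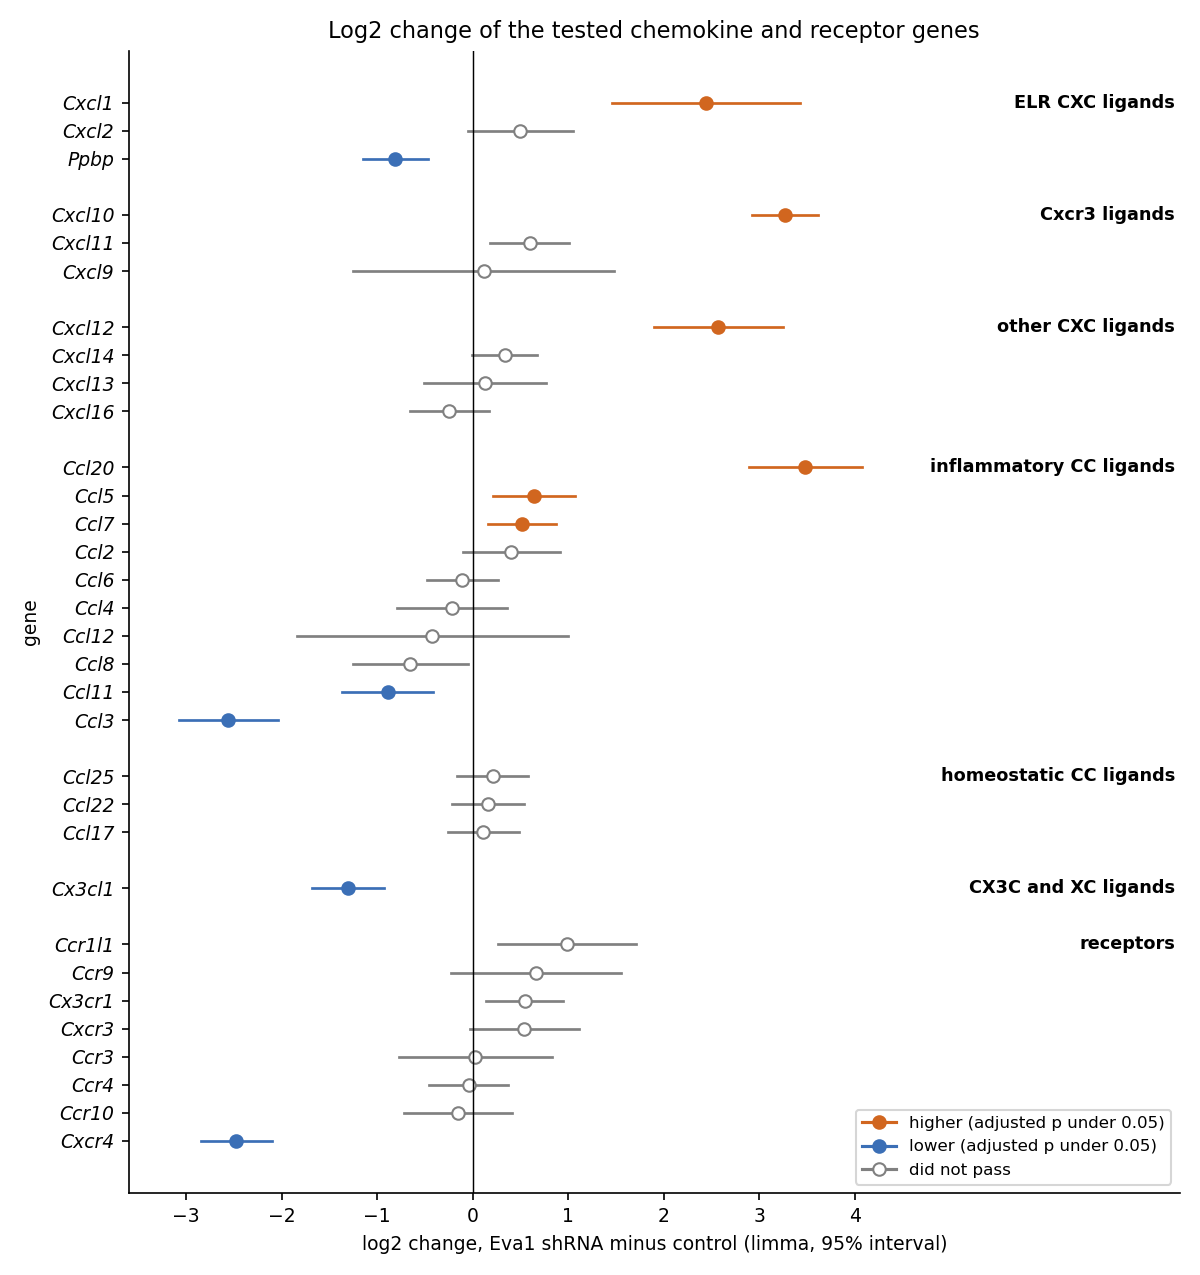
Log2 change (Eva1 shRNA minus control, quantile-normalized) of the 32 tested genes by role, with the 95% interval of limma for each gene alone as a line; filled points passed the adjusted test. Ccl20 (3.48) lies farthest to the right and Ccl3 (-2.56) farthest to the left, and 21 genes are open circles.

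Cxcl10, an interferon-induced attractant of activated T cells, rose with the smallest adjusted p of the members. The controls read 97.2 and 107 and the Eva1 shRNA cells 1114 and 1098, means of 102 ± 6.91 and 1106 ± 11.3 (SD, n = 2 each). Both groups were tight and lay far apart, and all 4 values were above the array median. The rise was 9.64-fold, or 3.27 ± 0.14 on the log2 scale (standard error; limma, adjusted p = 8.739e-04), and 3.09 with 16 units added.

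Ccl20, which attracts Ccr6-bearing lymphocytes and dendritic cells, went from a dim to a modest signal. It had intensities of 3.62 and 2.67 in the controls and 45.1 and 35.0 in the Eva1 shRNA cells. The control signal was far below the array median and the Eva1 shRNA signal was above it. The fitted log2 change was 3.48 ± 0.24 (standard error; adjusted p = 0.00133), and 1.46 with 16 units added.

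Cxcl12, the ligand of Cxcr4, had control intensities of 2.84 and 5.12 and Eva1 shRNA intensities of 28.6 and 23.8. Again the groups did not overlap and the control signal was dim. On the log2 scale it rose by 2.57 ± 0.27 (adjusted p = 0.00368), and 1.00 with 16 units added.

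Cxcl1, a neutrophil attractant, was the dimmest of the genes that rose. It had 1.73 and 2.55 in the controls and 18.6 and 8.40 in the Eva1 shRNA cells, all below the array median. Its rise was 2.44 ± 0.39 (adjusted p = 0.0112), but 0.63 with 16 units added. Its call was lost without control array 1 (adjusted p = 0.0634) and with blank cells filled (0.0636), and over all alternatives the adjusted p ran from 1.119e-04 to 0.0636.

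The DNA just upstream of these 4 genes, and of Cxcr4, the receptor that changed, is printed so that the motifs of factors known to act on chemokine genes can be seen. Each line holds the 250 bases before the RefSeq start (GRCm38.p6), 5′ to 3′ in the direction of the gene, and capitals mark the motif matches named below. The positions are chr5:92348890-92349139 on the minus strand for Cxcl10, chr1:83116516-83116765 on the plus strand for Ccl20, chr5:90890995-90891244 on the plus strand for Cxcl1, chr6:117168285-117168534 on the plus strand for Cxcl12 and chr1:128592300-128592549 on the minus strand for Cxcr4.
Cxcl10: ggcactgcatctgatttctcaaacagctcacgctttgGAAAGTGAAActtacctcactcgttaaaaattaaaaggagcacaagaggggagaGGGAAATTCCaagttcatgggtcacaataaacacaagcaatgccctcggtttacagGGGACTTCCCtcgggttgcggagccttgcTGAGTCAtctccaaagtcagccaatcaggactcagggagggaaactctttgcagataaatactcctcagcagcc
Ccl20: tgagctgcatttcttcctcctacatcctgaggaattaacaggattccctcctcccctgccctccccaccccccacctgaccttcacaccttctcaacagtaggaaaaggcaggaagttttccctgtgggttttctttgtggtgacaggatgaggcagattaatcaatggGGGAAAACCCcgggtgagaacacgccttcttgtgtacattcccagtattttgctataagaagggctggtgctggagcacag
Cxcl1: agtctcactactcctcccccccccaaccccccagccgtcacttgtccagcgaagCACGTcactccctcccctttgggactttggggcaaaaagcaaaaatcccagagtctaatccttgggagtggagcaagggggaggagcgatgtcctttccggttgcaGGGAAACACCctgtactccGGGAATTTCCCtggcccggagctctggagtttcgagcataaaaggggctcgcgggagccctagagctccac
Cxcl12: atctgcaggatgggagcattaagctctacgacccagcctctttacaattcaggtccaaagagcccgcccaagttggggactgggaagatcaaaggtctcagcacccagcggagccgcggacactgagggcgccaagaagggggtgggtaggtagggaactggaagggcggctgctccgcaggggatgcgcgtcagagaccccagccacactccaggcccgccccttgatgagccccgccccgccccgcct
Cxcr4: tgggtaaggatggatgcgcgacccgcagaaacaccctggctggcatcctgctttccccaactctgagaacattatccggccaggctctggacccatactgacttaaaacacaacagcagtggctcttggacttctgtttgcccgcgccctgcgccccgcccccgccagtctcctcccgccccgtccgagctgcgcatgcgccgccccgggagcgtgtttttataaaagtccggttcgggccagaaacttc

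Both strands were searched for 4 motifs: the NF-κB motif (GGGA and CC with any 4 bases between), the interferon response element (GAAA and GAAA with any 2 bases between), the AP-1 motif TGANTCA and the hypoxia response core ACGTG. The Cxcl10 window held 2 NF-κB matches, GGGAAATTCC from base 159 to 150 before the start and GGGACTTCCC from 103 to 94, with the interferon element GAAAGTGAAA from 213 to 204 and the AP-1 motif TGAGTCA from 74 to 68. In the Ccl20 window GGGAAAACCC lay 81 to 72 bases before the start. The Cxcl1 window held GGGAAACACC from 90 to 81 and a pair of overlapping matches from 71 to 61, read as capitals in 1 run, and a hypoxia core (CACGT on the strand shown) from 196 to 192. The windows of Cxcl12 and Cxcr4 held none of the 4 motifs, which says only that these letters are not in them.

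The NF-κB motif was in the windows of 3 of the 4 genes that rose and are in the promoter table (Ccl20, Cxcl1 and Cxcl10), in 0 of the 4 that fell and are in it (Ccl3, Cx3cl1, Cxcr4 and Ppbp), and in 6 of 16 that did not pass. It was in 12 of 36 windows of the members (33.3%) and in 17.6% of all 32851 windows of that length. The interferon element was in 2 of the 36 member windows (5.56%) and in 2.98% of all windows. The AP-1 motif was in 5 member windows (13.9%) and in 6.75% of all windows. The hypoxia core was in 3 member windows (8.33%) and in 16.6% of all windows. Of the 8 genes that passed and are in the table, Cxcl10 had the interferon element. Cxcl10, which rose, and Ppbp, which fell, had the AP-1 motif, and Cxcl1 had the hypoxia core. Ccl5, Ccl7 and Ccl11 passed but are not in the table and were not searched. A match is a description of the sequence and not of binding, and 34 of the 45 members were in the table. A link between a motif and the direction of change was not tested.

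**Figure D2:**
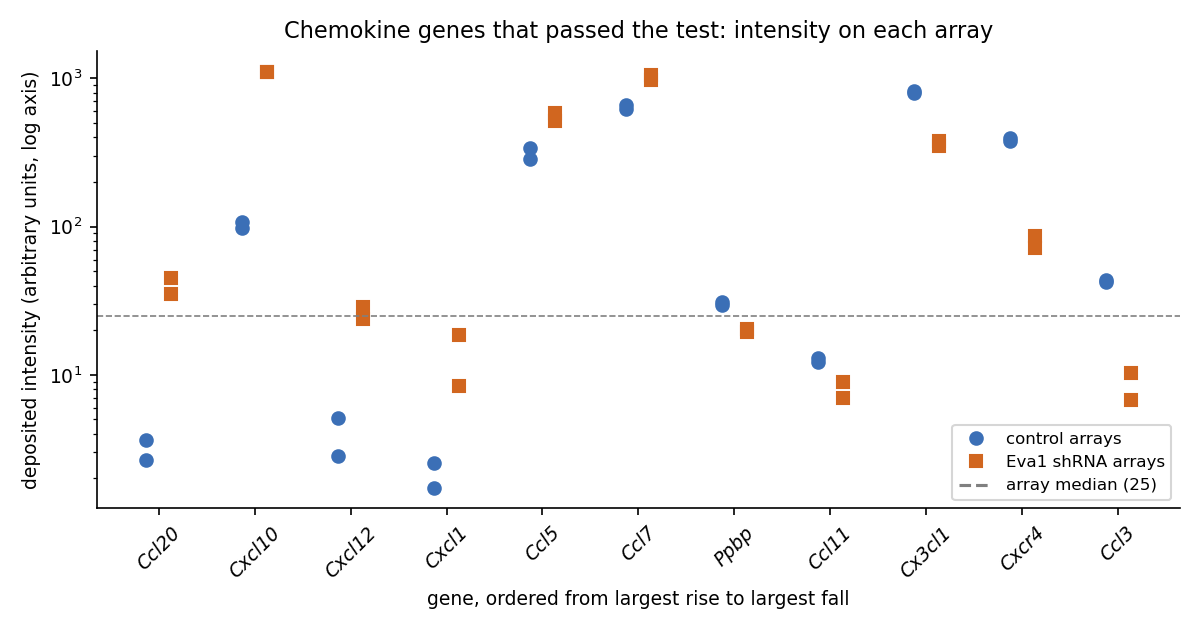
Deposited intensity (log axis) of the 11 genes that passed the test, on each of the 2 control arrays (circles) and the 2 Eva1 shRNA arrays (squares), with the array median of 25 as a dashed line. The groups do not overlap for any of the 11 genes, and Cxcl1 and Ccl11 stay below the dashed line on all 4 arrays.

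The remaining CXC ligands fell on both sides of 0. Ppbp, a platelet chemokine that becomes a neutrophil attractant after cleavage, had intensities of 29.7 and 31.1 in the controls and 20.5 and 19.6 in the Eva1 shRNA cells. It fell by 0.81 ± 0.13 on the log2 scale (adjusted p = 0.0123), or -0.49 with 16 units added. The call was lost without control array 1 (0.0504) and with either Eva1 shRNA array left out (0.0776 for array 1, 0.0710 for array 2), in a range of 0.00130 to 0.0776 over the alternatives. Cxcl2, a neighbour and close relative of Cxcl1, had 19.2 and 17.5 against 25.5 and 34.9, and its change of 0.50 did not pass (adjusted p = 0.155). Of the 5 members counted as ligands of Cxcr2, the neutrophil receptor, Cxcl15 was blank on all 4 arrays and Cxcl5 on all but control array 2.

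Cxcl9 and Cxcl11 share the receptor Cxcr3 with Cxcl10 and are likewise interferon-induced. Cxcl11 was absent from the RefSeq order of coding genes used below. Whether these cells make a working Cxcl11 protein was not tested. Cxcl11 had 31.4 and 26.9 in the controls and 53.8 and 46.7 in the Eva1 shRNA cells, and its change of 0.60 narrowly missed the threshold (adjusted p = 0.0508). It passed with the authors' scaling (0.0228), with eBayes trend (0.0106), with 16 units added (0.0126) and without the dimmest probes (0.0126), and over the alternatives its adjusted p ran from 0.0106 to 0.210. Cxcl9 was dim on every array (2.59 and 4.003, then 2.19 and 6.78), and its change of 0.11 had an interval from -1.25 to 1.48. Cxcr3 itself had 26.1 and 20.3 in the controls and 34.5 and 43.3 in the Eva1 shRNA cells, a change of 0.54 that did not pass (adjusted p = 0.141; 0.0454 with the authors' scaling and 0.0449 with eBayes trend, in a range up to 0.454).

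Of the other tested CXC ligands, 3 did not pass. Cxcl14, a chemokine of epithelia and brain, had 46.2 and 48.2 in the controls and 67.7 and 67.5 in the Eva1 shRNA cells, with a log2 change of 0.34 (adjusted p = 0.128; 0.0424 with the authors' scaling). The brighter probe of Cxcl16, a membrane-bound chemokine and scavenger receptor, lay between 69.1 and 84.0 on all arrays, and its change of -0.25 did not pass (adjusted p = 0.320). Its second probe lay between 4.10 and 5.50. Cxcl13, which draws B cells, lay between 3.46 and 5.57 (change 0.13, interval -0.51 to 0.77).

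Cxcr4 was the receptor gene that passed the test, out of 8 receptor genes tested. The controls read 398 and 377 and the Eva1 shRNA cells 87.0 and 72.2, means of 388 ± 14.5 and 79.6 ± 10.4 (SD, n = 2 each). All 4 values were above the array median. Cxcr4 was 5.57-fold lower, or -2.48 ± 0.15 on the log2 scale (adjusted p = 0.00111), and -2.25 with 16 units added.

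The atypical receptor of Cxcl12 fell as well. Ackr3, which binds and clears Cxcl12 and lies outside the symbol rule, had 2190 and 3115 in the controls and 350.2 and 446 in the Eva1 shRNA cells. Its change was -2.88 ± 0.25 on the log2 scale (adjusted p = 0.00245), and its adjusted p stayed at or below 0.0185 when any array was left out. Intensities of different probes are not on a common scale, so no amount of ligand is compared with an amount of receptor.

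**Figure D3:**
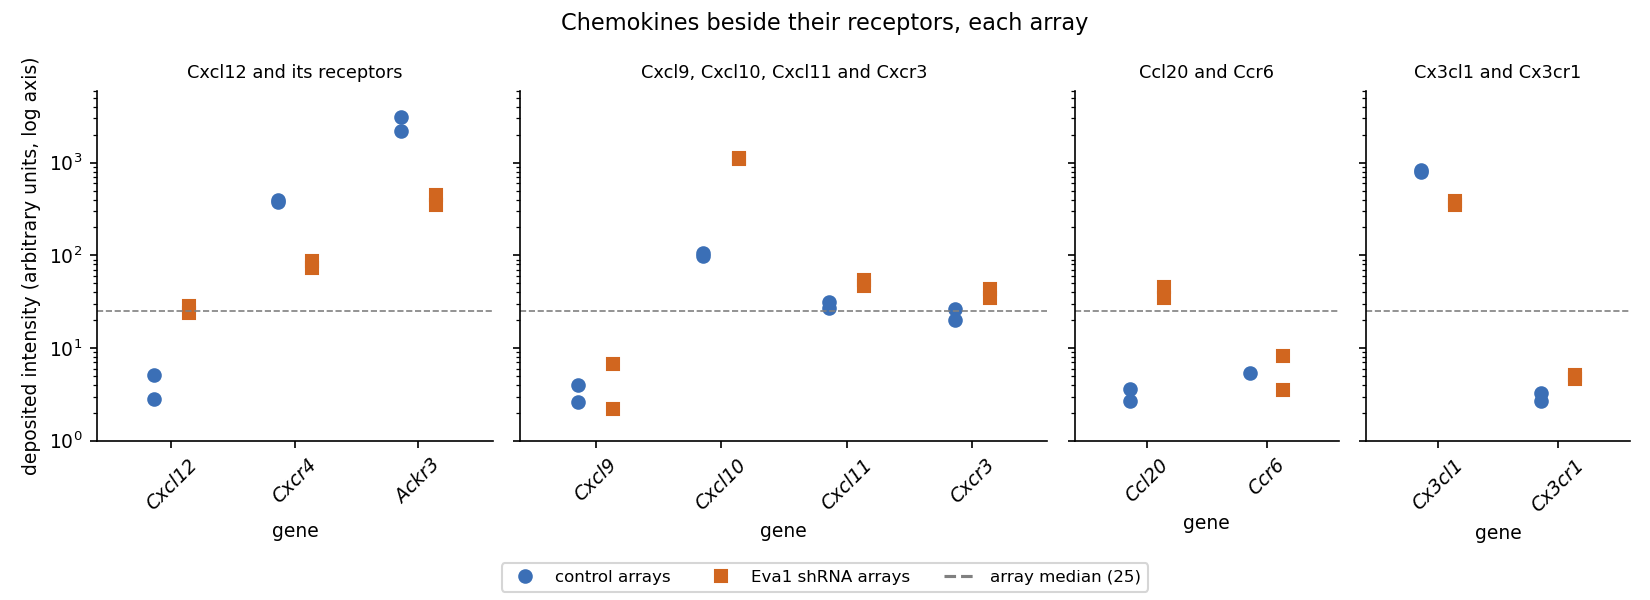
Deposited intensity (log axis) of chemokine genes beside the genes of their receptors on the 2 control arrays (circles) and 2 Eva1 shRNA arrays (squares); the dashed line is the array median of 25 and a missing symbol is a blank cell. Cxcl12 is higher and Cxcr4 and Ackr3 are lower on both Eva1 shRNA arrays, while Cx3cl1 is lower and Ccr6 is dim wherever it has a value.

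Cx3cl1, the membrane-tethered chemokine fractalkine, fell. It had intensities of 797 and 826 in the controls and 348 and 381 in the Eva1 shRNA cells. The groups were tight and apart, and the signal was well above the array median in both. Cx3cl1 was 2.47-fold lower, or -1.31 ± 0.15 on the log2 scale (adjusted p = 0.00450), and -1.27 with 16 units added. Its receptor Cx3cr1, which marks microglia and monocytes, was dim on every array (2.68 and 3.29, then 4.68 and 5.17), with a change of 0.54 that did not pass (adjusted p = 0.0595; 0.0303 with the authors' scaling).

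The 10 tested inflammatory CC ligands split into 3 that rose, 2 that fell and 5 that did not pass, with a median change of -0.16. Ccl3, an attractant of monocytes and T cells, had 43.4 and 42.4 in the controls and 10.3 and 6.74 in the Eva1 shRNA cells, a change of -2.56 ± 0.21 (adjusted p = 0.00207), and -1.37 with 16 units added. Ccl4, its close relative, lay between 3.99 and 5.42 on all arrays and had a change of -0.22 (interval -0.79 to 0.35).

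Ccl5, an attractant of T cells and monocytes, was bright in both groups, at 340.2 and 286 in the controls and 519 and 581 in the Eva1 shRNA cells. Its change of 0.64 passed narrowly (standard error 0.17, adjusted p = 0.0464). Ccl7, a monocyte attractant, had 662 and 627 against 984 and 1058, a change of 0.52 (standard error 0.14, adjusted p = 0.0491). Both stayed higher in the Eva1 shRNA cells in all 14 alternatives, but Ccl5 lost its call in 8 and Ccl7 in 9. With 1 array left out their calls were lost whichever it was: leaving out control array 1, control array 2, Eva1 shRNA array 1 and Eva1 shRNA array 2 in turn gave an adjusted p of 0.0758, 0.136, 0.107 and 0.198 for Ccl5 and of 0.110, 0.121, 0.143 and 0.212 for Ccl7. Over all alternatives the adjusted p ran from 0.00190 to 0.198 for Ccl5 and from 0.00336 to 0.212 for Ccl7.

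Ccl2, the main monocyte attractant secreted by glioma cells, was strongly expressed in both groups. Its intensity was 5701 and 7661 in the controls and 10049.8 and 10726 in the Eva1 shRNA cells. The control arrays were farther apart than the Eva1 shRNA arrays, and the change of 0.40 after normalization did not pass (interval -0.11 to 0.91, adjusted p = 0.200). It passed only with eBayes trend (0.0493), in a range of 0.0493 to 0.555. Ccl11, the eosinophil attractant eotaxin, was dim, at 12.2 and 12.95 in the controls and 7.01 and 9.01 in the Eva1 shRNA cells, and fell by 0.89 (standard error 0.19, adjusted p = 0.0249), or -0.34 with 16 units added. The call of Ccl11 was lost with either control array left out (0.0951 for array 1, 0.0807 for array 2), without Eva1 shRNA array 1 (0.111) and with blank cells filled (0.0715), in a range of 0.00219 to 0.111. Ccl8, another monocyte attractant, had 60.4 and 62.6 against 37.0 and 54.3 (change -0.65, adjusted p = 0.104). It passed with 16 units added (0.0288), with eBayes trend (0.0140) and without the dimmest probes (0.0286), in a range up to 0.356.

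Some neighbouring chemokine genes were called in opposite directions in the main fit. Of the genes concerned, Ccl5, Ccl7 and Ccl11 lost their calls in 8, 9 and 4 of the 14 alternatives. In the RefSeq gene order of GRCm38.p6, used here for order only, Ccl2, Ccl7, Ccl11, Ccl12 and Ccl8 are 5 consecutive coding genes on chromosome 11, and their changes in that order were 0.40, 0.52, -0.89, -0.42 and -0.65, of which Ccl7 passed as higher and Ccl11 as lower. In a second run of 5 on chromosome 11, Ccl5 was at 0.64, Ccl9 was not tested, and Ccl6, Ccl3 and Ccl4 were at -0.11, -2.56 and -0.22, of which Ccl5 passed as higher and Ccl3 as lower. On chromosome 8, Cx3cl1 (-1.31) lies between Ccl22 (0.16) and Ccl17 (0.11), which did not pass. The neighbours Cxcl1 (2.44, passed) and Cxcl2 (0.50, did not pass) on chromosome 5 both had values above 0, as did Ccr1l1 (0.98) and Ccr3 (0.03) on chromosome 9, which did not pass. Signal shared between probes of such closely related genes was not tested.

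The homeostatic CC ligands did not pass. Ccl17 and Ccl22, the ligands of Ccr4 on helper and regulatory T cells, had log2 changes of 0.11 (interval -0.26 to 0.48) and 0.16 (-0.22 to 0.54). Ccl17 lay between 44.3 and 59.0 and Ccl22 between 28.8 and 40.8 on the 4 arrays. Ccl25, which guides T cells in thymus and gut, lay between 103 and 152 (change 0.21, interval -0.16 to 0.58). Ccl6 and Ccl12, macrophage-type ligands that also did not pass, were at most 6.62 on all arrays.

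The probe annotated Ccr4 was bright and level, at 1941 and 2275 in the controls and 2339 and 2041 in the Eva1 shRNA cells (change -0.04, interval -0.46 to 0.37). Ccr4 is also an older synonym of Noct, the nocturnin gene, so the value is not securely that of the chemokine receptor. Ccr1l1, an orphan relative of Ccr1, had 10.4 and 18.9 against 37.1 and 27.8, a change of 0.98 with adjusted p = 0.0589. That value ranged from 0.00393 to 0.228 over the alternatives and was 0.0316 without control array 2. Ccr9, the gut-homing receptor and partner of Ccl25, was dim (2.64 and 5.88, then 6.89 and 7.45), with a change of 0.66 and adjusted p = 0.225, or 0.0302 without control array 2. Ccr3 and Ccr10 were at most 7.505 on all arrays, with changes of 0.03 and -0.16.

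Blank cells left 13 members untested, and none of their values exceeded 18.9. These were the ligands Ccl9, Ccl24, Cxcl5, Cxcl15, Pf4 and Xcl1 and the receptors Ccr1, Ccr2, Ccr6, Ccr7, Ccr8, Cxcr6 and Xcr1. Values on all 4 arrays were present for 71.7% of member probes and 81.8% of all probes. Cxcl15 and Xcr1 were blank on all 4 arrays. Ccl9, a macrophage chemokine, was blank on control array 1 and 2.73 on control array 2, beside 18.9 and 12.3 on the Eva1 shRNA arrays. Cxcr6, the receptor of Cxcl16, was blank and 2.12 in the controls and 5.75 and 9.14 in the Eva1 shRNA cells. With blank cells filled with the lowest value of the array, Ccl9 had a log2 change of 2.88 and Cxcr6 1.98, and neither passed (adjusted p = 0.0515 and 0.0714). Ccr6, the receptor of Ccl20, was blank, 5.38, 8.20 and 3.55 on the 4 arrays in the same order.

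**Figure D4:**
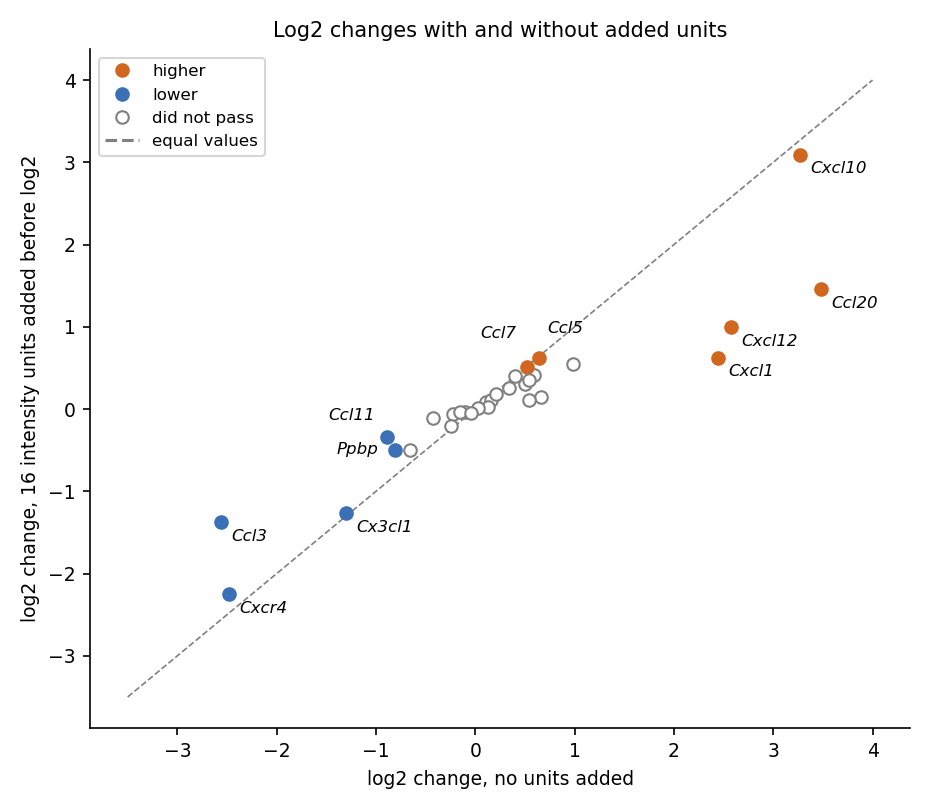
Log2 change of the 32 tested genes without (x axis) and with (y axis) 16 intensity units added before log2; the dashed line marks equal values, and filled points passed the test without added units. Cxcl10, Cxcr4 and Cx3cl1 lie near the line, while Ccl20, Cxcl12, Cxcl1 and Ccl3 lie closer to 0 on the y axis.

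For 5 of the 11 called genes (Cxcl10, Cxcr4, Cx3cl1, Ccl5 and Ccl7) both group means were above 25, and their log2 changes were 1.02 to 1.10 times smaller with 16 units added. For the other 6 at least 1 group mean was below 25, and each change was over 1.5 times smaller with 16 units added. A smaller change of dim probes follows from the added units themselves. The calls of 6 genes (Ccl20, Cxcl10, Cxcl12, Ccl3, Cxcr4 and Cx3cl1) were kept in all 14 alternatives. These include Ccl20 and Cxcl12, dim in the controls, and Ccl3, dim in the Eva1 shRNA cells. The bright Ccl5 and Ccl7 lost their calls in 8 and 9.

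**Figure D5:**
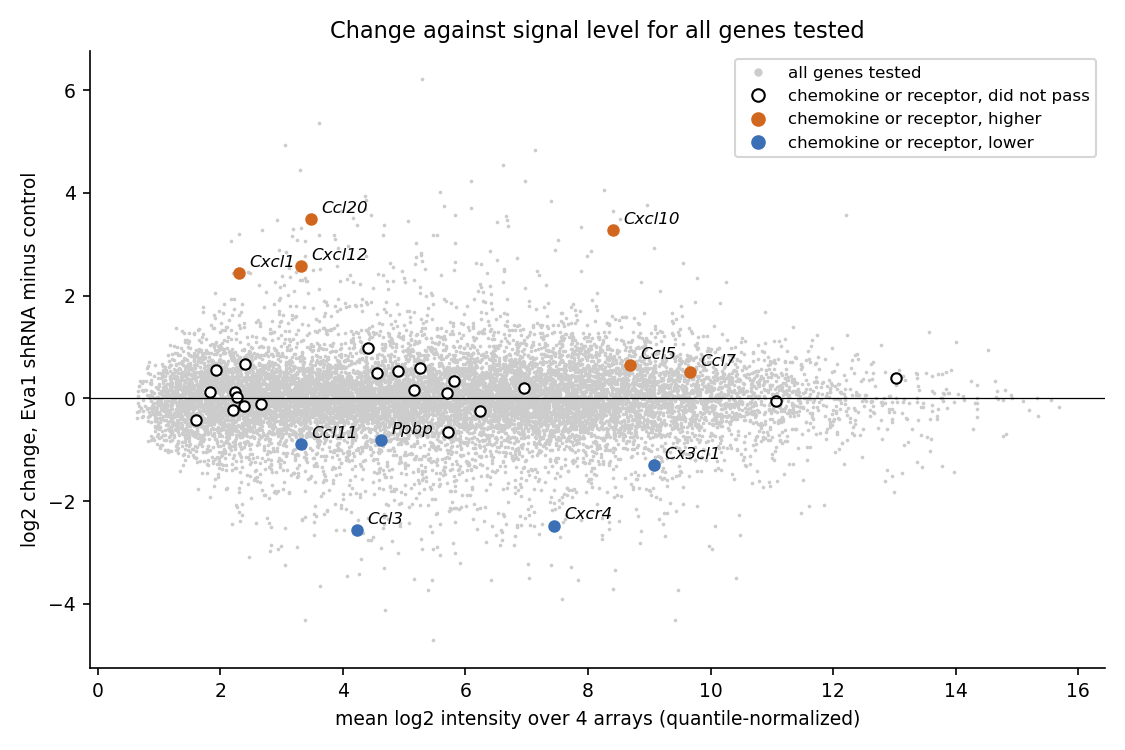
Log2 change (y axis) against the mean quantile-normalized log2 intensity over 4 arrays (x axis) for all 13765 genes tested (grey) and the 32 chemokine and receptor genes (circles; filled where the test was passed). Cxcl10, Cxcr4 and Cx3cl1 lie at mid to high signal, and Ccl20, Cxcl12, Cxcl1 and Ccl3 at low signal.

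Genes outside the symbol rule that handle, transmit or induce chemokine signals were described as 4 lists, beside the 26.0% of all genes that passed. Of 7 tested atypical receptors and related genes, 1 rose and 3 fell, with a median change of -0.17. Besides Ackr3, the cytokine gene Mif fell from a bright signal (-0.75, adjusted p = 0.0157), Cd74, the receptor chain for Mif, fell from a dim one (-1.24, adjusted p = 0.0354), and Ackr4, the scavenger of homeostatic CC chemokines, rose by 1.26 (adjusted p = 0.0402). With 1 array left out, the adjusted p reached 0.0887 for Mif without Eva1 shRNA array 1, 0.142 for Cd74 without control array 1 and 0.144 for Ackr4 without Eva1 shRNA array 2. The change of Cd74 was -0.34 with 16 units added.

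Of 30 tested genes of receptor signalling, 2 rose, 7 fell and 21 did not pass, with a median change of -0.17. Rgs2, which shortens G protein signals, had 60.9 and 59.8 in the controls and 370.2 and 352 in the Eva1 shRNA cells, a rise of 2.39 (adjusted p = 0.00105). Rgs16, a regulator of the same family, moved the other way (-1.44, adjusted p = 0.00356). Arrb1, an arrestin gene, fell (-2.11, adjusted p = 0.00221), as did Elmo2, a scaffold for Rac activation in migrating cells (-1.54, adjusted p = 0.00321). These 4 calls were kept when any array was left out. Arrb2, the other arrestin gene listed, lay between 100 and 123 on all arrays and did not pass (-0.34, adjusted p = 0.142). The Gi subunit genes Gnai1, Gnai2 and Gnai3 had changes of 0.11, -0.17 and -0.31 without passing.

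Among 30 tested inducers and transcription factors of chemokine genes, 2 rose, 5 fell and 23 did not pass, with a median of 0.07. Ltbr, the lymphotoxin receptor gene, rose by 1.45 (adjusted p = 0.00283). The NF-κB genes Nfkb1, Nfkb2, Rela, Relb and Rel had changes of 0.12, -0.19, -0.16, 0.43 and -0.18 without passing. Nfkbia (-0.11) did not pass either, and Nfkbiz fell (-0.95, adjusted p = 0.0254), a call lost without Eva1 shRNA array 1. Hif1a, the hypoxia factor gene, fell (-0.98, adjusted p = 0.00783), and so did Irf9 (-1.05, 0.0144) and Stat2 (-1.12, 0.0144), the last pair being parts of the interferon-induced factor that binds the interferon element. The calls of Hif1a, Irf9 and Stat2 were lost without Eva1 shRNA array 1 (adjusted p = 0.0558, 0.0750 and 0.0693). Of 15 tested genes for heparan sulfate carriers and matrix proteases, which hold or trim chemokines, 2 rose and 4 fell, with a median of -0.12. Ndst2, a heparan sulfate sulfotransferase gene, fell (-1.13, adjusted p = 0.00552), as did the syndecan genes Sdc3 (-1.08, 0.00652) and Sdc1 (-2.45, 0.0211) and the macrophage elastase gene Mmp12 (-0.91, 0.0290). The Eva1 shRNA arrays differed for Sdc1, at 39.0 and 12.6. With 1 array left out, the adjusted p reached 0.0508 for Sdc3 and 0.130 for Mmp12 without Eva1 shRNA array 1 and 0.0956 for Sdc1 without control array 1. With 16 units added the change of Sdc3 was -0.46.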

How the data were processed

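The authors deposited 1 table of intensity values for 4 1-colour arrays (total RNA, Cy5 label, per the labels), scaled so that the median filled cell is near 25, as the values show. For scanner, background correction and the rule for blank cells, the entry is: not given in the sources used here. Probe names came from the platform annotation and were updated through RefSeq synonyms of GRCm38.p6. Log2 intensities of the 19199 probes with a value on all 4 arrays were quantile normalized, each gene was represented by its brightest probe, and the groups were compared with limma 3.58.1 (lmFit, eBayes) in R 4.3.3, with adjustment over 13765 genes. Across probes r was 0.991 (control) and 0.993 (Eva1 shRNA) within groups and 0.964 to 0.970 between them. Deviations of same-numbered arrays showed no correlation after quantile normalization (r = -0.0093). With 2 arrays a group this is 1 value, and it cannot show whether same-numbered arrays were handled together. Precision is limited by having 2 arrays a group. The limma fit alone was tried on simulated data, which did not cover normalization, blank cells or the choice of probe. The members and the gene lists were chosen with earlier results of these data known. By rule, each array's value is given for members that passed or had a group mean above 25. Ccl17, Ccl22, Ccl25 and Cxcl16 met that rule but are given by range. Up to 4 genes of smallest p are named per list. Outside the rule, and chosen with values known, are the array values of dimmer members (Cxcl9, Cx3cr1, Ccr9, Ccl9, Cxcr6, Ccr6) and the Gnai genes. The same holds for Arrb2, the 5 NF-κB genes, Nfkbia and Nfkbiz. Alternatives were other scalings, filters, offsets, filled blanks, variance models, probe summaries, the replicate number as a block and each array left out. Figures were drawn with matplotlib 3.10.9.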

Additional observations from a re-analysis of the deposited data

How the results depend on the processing

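The 6 rises and 5 falls among the members became 11 rises with the authors' scaling, 10 with eBayes trend and 3 with blank cells filled. Over all genes the 1720 higher calls became 2714, 2490 and 1204 in the same settings. With 1 array left out, fewer members passed, and fewer of all genes tested passed as well. The drop is therefore not particular to the members. With the replicate number as a block, 4 rose and 5 fell, and Ccl5 and Ccl7 lost their calls. The 26 calls of the pathway lists became 12 with blank cells filled, when 16390 genes were tested, and 10 to 16 with 1 array left out (Eva1 shRNA array 1 gave 10, array 2 gave 14; control array 1 gave 13, array 2 gave 16). The replicate block gave 26 calls in the lists and a log2 change of -3.12 for Mpzl2. Mpzl2 kept its call in all 14 alternatives, at -3.29 to -2.98 with 1 array left out. Over all tested members, 394 of the pairs of a gene and an alternative kept direction and call or stayed uncalled, 26 lost a call and 18 gained one, and no called change reversed. Signal near the lowest values of an array limits the sizes of change for Ccl20, Cxcl12, Cxcl1, Ccl11 and Ccl3.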
